A study of Mus musculus with 6 samples.

Results

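Iron handling in the liver was described here through 10 genes taken by name: hepcidin (Hamp and Hamp2), the hepcidin inducer Bmp6, transferrin and its receptor (Trf, Tfrc), both ferritin chains (Fth1, Ftl1), the iron exporter ferroportin (Slc40a1), the phagosomal iron transporter Slc11a1 and heme oxygenase 1 (Hmox1). All 10 had a column in the deposited table of 16623 genes. The livers came from 3 wild-type mice and 3 mice lacking SIRT7, a histone deacetylase, all 5 to 6 months old and without a drug, virus or special diet named in the labels. The SIRT7-/- deletion is not restricted to a cell type, and the study uses these mice as a model of fatty liver disease that arises on a chow diet. Hepatocytes and nonparenchymal cells were freed with collagenase, mixed in equal numbers and made into 1 droplet library per mouse, in which every RNA molecule carries a unique molecular identifier (UMI) and the barcode of its cell. The question was where each gene was expressed and whether its level differed between wild-type and SIRT7-/- mice in hepatocytes, macrophages and endothelial cells.

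Hepatocytes secrete hepcidin, a peptide hormone that binds ferroportin and sends it to be degraded, so that iron stays inside macrophages and gut cells. Endothelial cells of the liver sinusoids supply BMP6, and the BMP signal together with inflammatory STAT3 signalling raises Hamp transcription in hepatocytes. Kupffer cells, the macrophages of the liver, take up old red blood cells, break heme down with heme oxygenase 1, and store the iron in ferritin or return it to the blood through ferroportin. The ferritin chains and the transferrin receptor are controlled largely at the level of mRNA translation or stability by iron regulatory proteins, so that transcript levels give only part of the iron response.

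Mice carry a pair of hepcidin genes side by side, Hamp at chromosome 7:30942368-30944032 and Hamp2 at chromosome 7:30922372-30924681, both on the minus strand (GRCm38, GENCODE annotation). The 250 bases before their RefSeq starts are shown because both genes are hepatocyte genes whose relative levels differed from mouse to mouse in these data. Sequences are from RefSeq on GRCm38.p6, 5′ to 3′ on the strand of the gene, for chr7:30944030-30944279 (Hamp) and chr7:30924182-30924431 (Hamp2). RefSeq starts Hamp2 downstream of the GENCODE start, so that the Hamp2 window lies within the GENCODE gene. Capitals mark GGCGCC, the core of BMP responsive elements, and TTCNNNGAA, the core of STAT sites.
Hamp: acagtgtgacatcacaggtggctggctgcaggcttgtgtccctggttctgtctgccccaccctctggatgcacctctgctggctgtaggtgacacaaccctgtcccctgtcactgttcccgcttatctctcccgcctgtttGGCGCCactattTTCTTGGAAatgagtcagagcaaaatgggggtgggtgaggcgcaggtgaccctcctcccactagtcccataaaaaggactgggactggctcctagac
Hamp2: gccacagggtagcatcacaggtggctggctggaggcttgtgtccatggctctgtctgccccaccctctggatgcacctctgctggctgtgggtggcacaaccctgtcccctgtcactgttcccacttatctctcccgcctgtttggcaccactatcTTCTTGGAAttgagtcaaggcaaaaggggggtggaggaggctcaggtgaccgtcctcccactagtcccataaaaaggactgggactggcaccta

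Aligned to each other, these windows were identical in 227 of 253 columns (89.7%). Both strands were searched. The STAT core TTCTTGGAA lay 97 to 89 bases upstream of the RefSeq start of Hamp and 94 to 86 bases upstream of that of Hamp2. GGCGCC lay 109 to 104 bases upstream of Hamp and had no match in the Hamp2 window. GGCGCC was found in 9.59% and TTCNNNGAA in 7.01% of all 32817 windows of the same length. Of the 10 genes, 7 had a promoter window in RefSeq's table, 9 windows in all. The antioxidant response core TGACNNNGC, found in 10.16% of all windows, and the E-box CACGTG, found in 6.02%, each matched among the 7 genes only in the Bmp6 window, and GGCGCC also matched 1 of the Tfrc windows. The windows of Fth1, Ftl1 and Slc11a1 had no match to any of these motifs.

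Near-identical transcripts limit how well some of the genes can be told apart by short reads. Of the 380 words of 31 letters in the Hamp transcript, 128 (33.68%) also occur in Hamp2, with a longest shared run of 87 bases. Ftl1 shares 756 of its 1389 such words (54.43%) with its near copy Ftl1-ps1, over runs of up to 524 bases, whereas Fth1 and Ftl1 share 0. The split of reads between Hamp and Hamp2, and the Ftl1 level, are therefore uncertain. The words were counted over whole transcripts, whereas the libraries read the 3′ ends, so these shares do not measure how many counts are affected.

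The table held 11610 cells, between 552 and 5609 per mouse, with 2511947 to 11069411 UMIs per mouse and medians of 1630 to 3875 UMIs per cell. Sirt7 averaged 0.512 to 0.718 counts per 10000 UMIs of a cell (CP10K) over all cells of the wild-type mice and 0.0814 to 0.139 CP10K in the SIRT7-/- mice. Libraries shared 13 cell barcodes. Grouping the cells anew gave 10 clusters, of which 9 had a mouse with at least 20 cells, while stellate-like cluster 9 had 39 cells and at most 12 from a mouse and is not described. Cluster 0 (3714 cells, led by Clec4f, C1qa and Cd5l) held all 10 macrophage markers and is called macrophage-like, cluster 5 (535 cells, led by Aqp1 and Ptprb) held all 9 endothelial markers, and cluster 1 (1966 cells) was T or NK-like. All 8 hepatocyte markers were detected in clusters 2 and 4, yet none was among the 10 leading genes of either. Cluster 2 (1752 cells) scored higher for these markers than cluster 4, with a mean log2 ratio to the other cells of 2.26 against 1.09. The summed level of the markers was also higher in cluster 2 than in cluster 4 of every mouse. Hemoglobin genes made up 3 of the first 10 leading genes of cluster 2, beside Mup17 and Sult2a5, so it is called by its number only. Cluster 4 (1208 cells, led by Slc22a30, Mlxipl and Abcc2) is hepatocyte-like. Cluster 3 (1497 cells) carried basophil and dendritic genes and has no name. SIRT7-/- mouse 3 had 8 endothelial-like cells, under the minimum of 20 cells per mouse, and was left out of that class, so that endothelial-like cells compare 3 wild-type with 2 SIRT7-/- mice.

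Each gene had its own pattern over the clusters, given here as the mean over mice with the lowest and highest mouse. Hamp was highest in cluster 2 (53.4 CP10K, range 38.9 to 84.4) and cluster 4 (42.4, range 21.7 to 74.5), whose ranges overlap, and the B-like, neutrophil-like and T or NK-like means lay between 9.43 and 15.2 CP10K. Hamp2 was likewise highest in cluster 2 (23.8, range 9.97 to 53.8) and cluster 4 (13.2, range 2.79 to 40.4). Trf, which encodes the iron carrier of the blood plasma, followed the same order with 26.3 CP10K in cluster 2 and 15.8 CP10K in cluster 4, again with overlapping ranges.

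Ferroportin (Slc40a1) was a gene of the macrophage-like cluster, at 25.3 CP10K (range 22.0 to 30.7). Next came the neutrophil-like cluster at 4.66 CP10K (range 2.81 to 6.28, 3 mice) and endothelial-like cells at 3.19 CP10K (range 2.50 to 3.78), which overlap each other and lie wholly below the macrophage-like range. Cluster 4 followed at 1.69 and cluster 2 at 0.997 CP10K. Hmox1 had the same leader, with 10.2 CP10K (range 8.40 to 13.4) in macrophage-like cells against means of 0.162 to 2.08 CP10K elsewhere. Slc11a1, which pumps iron and other metals out of the phagosome, was at 1.57 CP10K (range 1.15 to 1.87) in macrophage-like cells, 0.639 CP10K in the neutrophil-like cluster and 0.382 CP10K in cluster 3. Bmp6 was detected almost only in endothelial-like cells, at 1.47 CP10K (range 0.932 to 1.93), and its mean was at most 0.0394 CP10K in the other 8 clusters with a value. Tfrc was low throughout, with 0.564 CP10K in macrophage-like cells and 0.492 CP10K in cluster 4 as its highest means.

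The ferritin genes were expressed in every cluster, but at levels that spread widely. Fth1, the heavy chain with the ferroxidase center, ranged from 9.56 CP10K in plasma B-like cells to 82.1 CP10K in cluster 2, and Ftl1, the light chain, from 20.02 to 146 CP10K in the same clusters. Macrophage-like cells stood at 53.5 CP10K of Fth1 and 115 CP10K of Ftl1. Cluster 4 held only 17.8 and 37.6 CP10K, so that the clusters with hepatocyte markers were far apart in ferritin, each mouse of cluster 2 lying above each mouse of cluster 4 for both genes. These levels across clusters are a description and were not tested, since the clusters were drawn from the same cells.

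**Figure D1:**
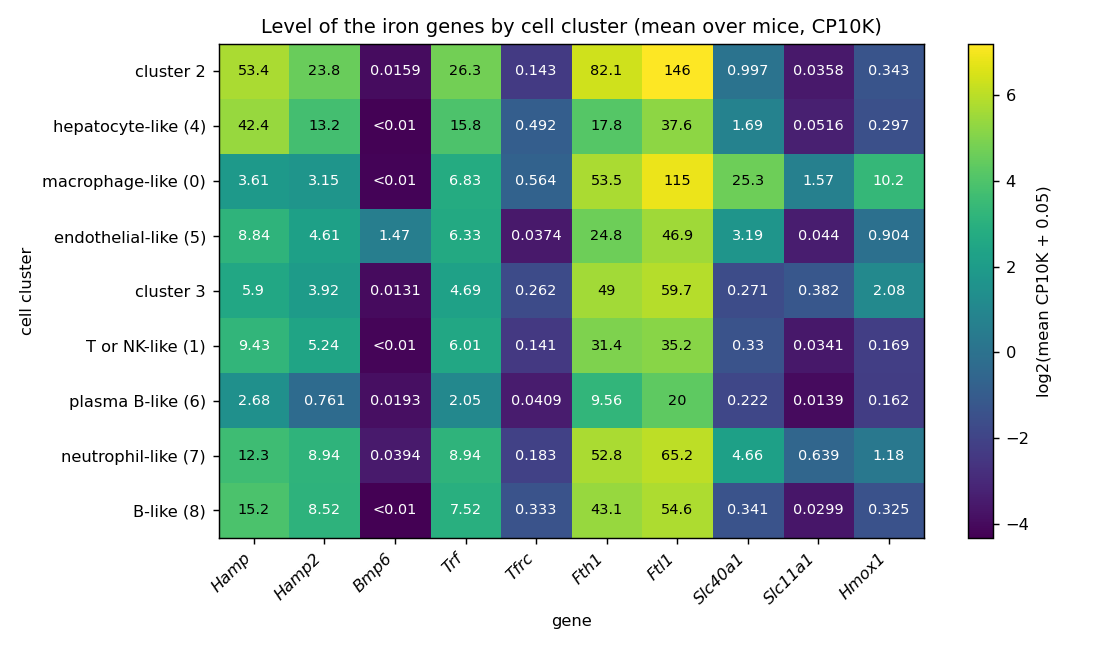
Heat map of the mean level of the 10 iron genes (columns) in 9 cell clusters (rows). Numbers are CP10K averaged over the mice with at least 20 cells in the cluster, and the color is log2 of that mean plus 0.05 CP10K. Hamp, Hamp2 and Trf are highest in clusters 2 and 4, Slc40a1, Hmox1 and Slc11a1 in macrophage-like cells, and Bmp6 in endothelial-like cells.

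Hepatocyte transcripts were counted in every cluster, which bears on the low hepcidin and transferrin values outside clusters 2 and 4. Alb, the albumin transcript of hepatocytes, averaged 3.30 to 40.3 CP10K in the T or NK-like cells of the 6 mice, which should lack it. The number of Hamp UMIs per Hamp2 UMI varied from mouse to mouse. In cluster 2 it was 0.746, 1.44 and 4.18 in wild-type mice 1, 2 and 3, and 6.21, 3.79 and 4.15 in SIRT7-/- mice 1, 2 and 3. In T or NK-like cells it was 0.721, 1.42 and 3.55 in the wild-type mice and 5.46, 3.44 and 2.13 in the SIRT7-/- mice. T or NK-like cells thus carried Hamp and Hamp2 in nearly the ratio of cluster 2 of the same mouse, except in SIRT7-/- mouse 3, where the T or NK-like value rests on 49 and 23 UMIs. In cluster 4 the ratio was 1.90, 2.89 and 9.39 in the wild-type mice and 7.74, 8.0 and 4.24 in the SIRT7-/- mice, above the ratio of cluster 2 in each of the 6 mice. Wild-type mice 1 and 2 were the only ones with a ratio under 3 in cluster 2.

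**Figure D2:**
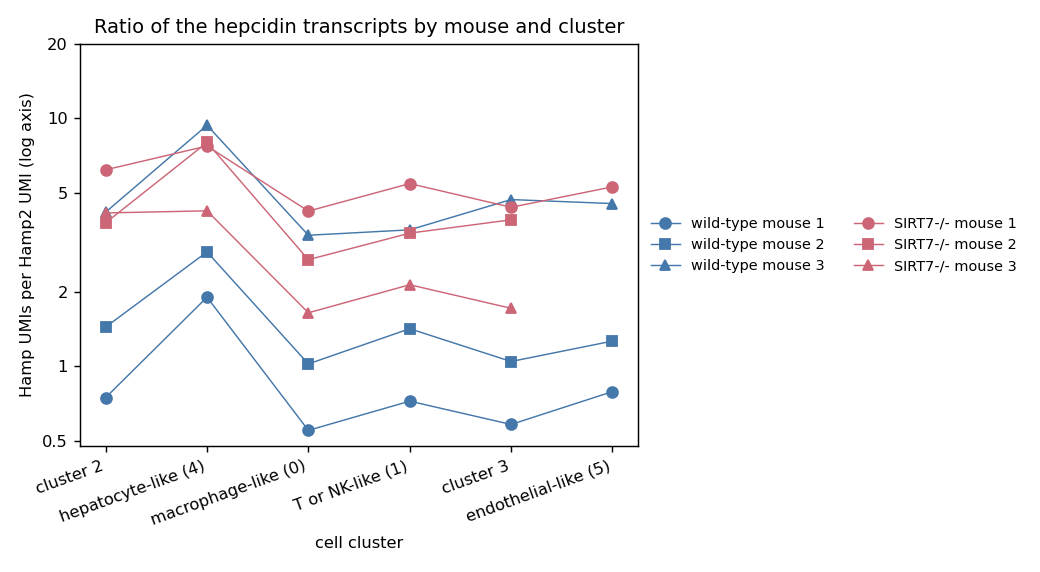
Hamp UMIs per Hamp2 UMI (log axis) in 6 clusters, 1 line per mouse, with wild-type mice in blue and SIRT7-/- mice in red. Points with under 10 Hamp2 UMIs or under 20 cells are left out. Wild-type mouse 1 is lowest in each cluster shown (0.550 to 1.90) and wild-type mouse 2 next lowest, while the order of the other mice changes between clusters.

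The ratios to Alb were not fixed between clusters. Per Alb UMI, Trf UMIs numbered 0.541, 0.476 and 0.492 in the macrophage-like cells of the wild-type mice and 0.488, 1.24 and 0.377 in those of the SIRT7-/- mice. In T or NK-like cells of the same mice the numbers were 0.301, 0.253 and 0.211, then 0.221, 0.435 and 0.196. The macrophage-like value was the higher in each of the 6 mice. Hamp went the other way in each of them, at 0.155, 0.252 and 0.283 per Alb UMI in macrophage-like cells of wild-type mice and 0.434, 0.442 and 0.0988 in those of SIRT7-/- mice, against 0.278, 0.352 and 0.458, then 0.907, 1.24 and 0.133 in the T or NK-like cells. Hamp2 per Alb UMI was also lower in macrophage-like cells of each mouse, narrowly so in wild-type mouse 2 and SIRT7-/- mouse 3.

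The main comparison took, for each mouse, the mean CP10K over its cells of a class, and tested log2 of that mean plus 0.05 CP10K between the genotypes with limma and Benjamini-Hochberg adjustment over all genes tested in the class (threshold 0.05, two-sided). A fold change on this scale understates changes of very low genes. In cluster 2, Hamp and both ferritin genes were higher in all SIRT7-/- mice than in any wild-type mouse, as were 7.84% of all genes tested there, without passing the adjusted threshold. In cluster 4 the same genes averaged lower in the SIRT7-/- mice with overlapping groups. In macrophage-like cells, both ferritin genes, Slc40a1 and Slc11a1 were higher in each SIRT7-/- mouse, by 1.20- to 1.38-fold, again without passing (7.14% of all genes tested there were higher in this way).

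Hamp in cluster 2 averaged 38.9, 41.1 and 45.1 CP10K in wild-type mice 1, 2 and 3, and 84.4, 62.7 and 48.5 CP10K in SIRT7-/- mice 1, 2 and 3. The groups did not overlap, but SIRT7-/- mouse 3 exceeded wild-type mouse 3 only narrowly. The log2 fold change was 0.61 (SE 0.20, 95% confidence interval 0.19 to 1.03; limma Benjamini-Hochberg adjusted p = 0.22). Leaving out 1 mouse at a time gave 0.41 to 0.80. Without SIRT7-/- mouse 3 it was 0.80 with an adjusted p of 0.045 by limma, and 159 genes passed there instead of 40. Over all alternatives the limma adjusted p of Hamp ranged from 0.016 to 0.65. In cluster 4, Hamp averaged 74.5, 45.1 and 30.5 CP10K in the wild-type and 32.8, 21.7 and 50.1 CP10K in the SIRT7-/- mice, with wild-type mouse 1 the highest and the groups overlapping (log2 fold change -0.51, SE 0.42, limma adjusted p = 0.73). With clusters 2 and 4 pooled, the values were 53.2, 41.9 and 38.5 against 61.4, 54.5 and 49.8 CP10K, and the groups overlapped (log2 fold change 0.32, SE 0.46, limma adjusted p = 0.94). The mix of the pooled cells differed between mice. Cluster 4 gave 321 of 799, 101 of 512 and 46 of 101 cells in the wild-type mice. In the SIRT7-/- mice it gave 412 of 927, 57 of 286 and 271 of 335. The part of this mix in the pooled values of any gene was not tested.

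Hamp2 in cluster 2 averaged 53.8, 28.9 and 9.97 CP10K in the wild-type and 13.9, 17.8 and 18.6 CP10K in the SIRT7-/- mice. The wild-type mice spread over a wider range than the SIRT7-/- mice and enclosed them, so that the log2 fold change of -0.59 had an interval from -2.27 to 1.10 (limma adjusted p = 0.78). In cluster 4 the wild-type values of 40.4, 15.6 and 2.79 CP10K again enclosed those of the SIRT7-/- mice, 4.34, 3.46 and 12.9 CP10K (log2 fold change -1.06, SE 1.06, limma adjusted p = 0.80). Hamp and Hamp2 thus had changes of opposite sign in cluster 2, with the Hamp2 mean set mainly by wild-type mice 1 and 2.

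Trf (chromosome 9:103204001-103230444) averaged 44.7, 43.3 and 12.9 CP10K in cluster 2 of the wild-type mice, against 11.9, 14.1 and 30.7 CP10K in that of the SIRT7-/- mice. Wild-type mice 1 and 2 and SIRT7-/- mouse 3 were the high ones, the groups overlapped, and the log2 fold change was -0.76 (SE 0.66, limma adjusted p = 0.70). The same 3 mice had the most Alb in cluster 2, with 138, 212 and 60.9 CP10K in the wild-type and 49.6, 22.8 and 105 CP10K in the SIRT7-/- mice. In cluster 4, Trf had a log2 fold change of -0.63 (SE 0.43, limma adjusted p = 0.66), and the groups overlapped.

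**Figure D3:**
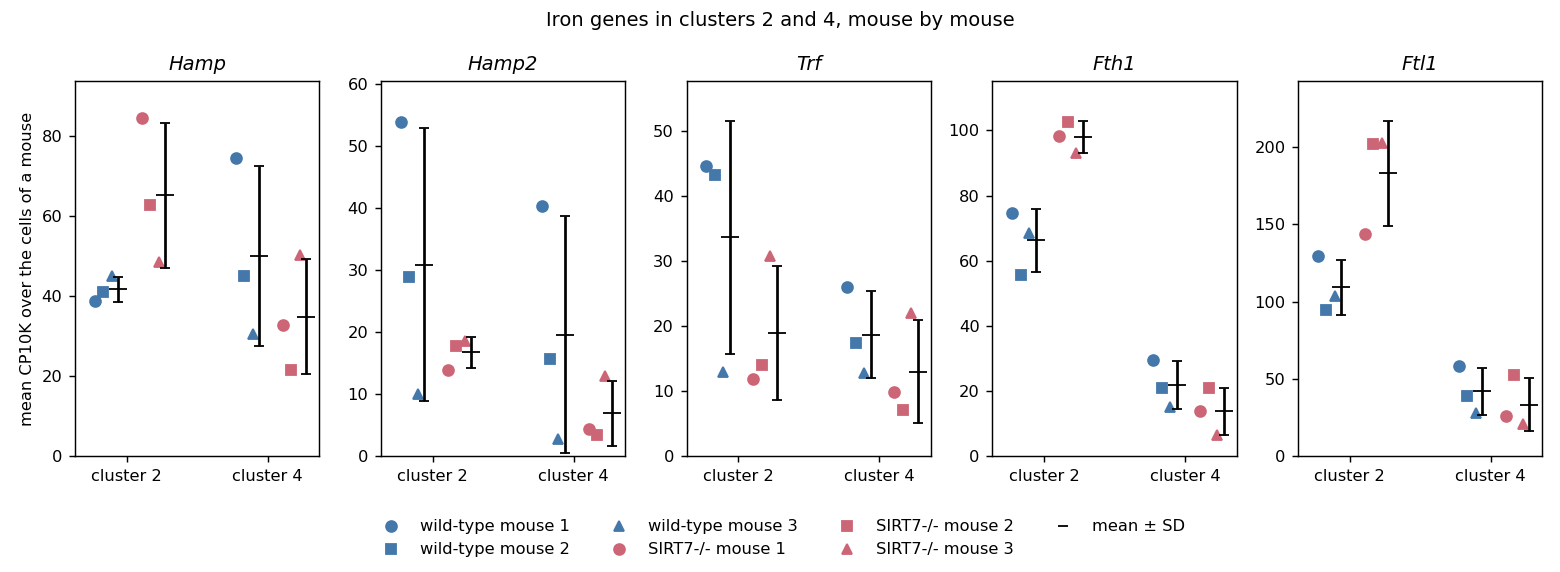
Mean CP10K of Hamp, Hamp2, Trf, Fth1 and Ftl1 over the cells of each mouse in clusters 2 and 4. Points are mice (blue wild-type, red SIRT7-/-) and bars are the mean ± SD of 3 mice. For Hamp, Fth1 and Ftl1 the genotypes separate in cluster 2 and overlap in cluster 4.

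Ftl1 (chromosome 7:45457944-45459884) had the smallest p of the 10 genes in cluster 2. It averaged 129, 94.7 and 103 CP10K in the wild-type and 144, 202 and 203 CP10K in the SIRT7-/- mice. Every SIRT7-/- mouse lay above every wild-type mouse, and the log2 fold change was 0.74 (SE 0.18, 95% confidence interval 0.37 to 1.11, 1.67-fold; limma adjusted p = 0.061). Leaving out 1 mouse at a time kept it between 0.64 and 0.90, and the limma adjusted p fell to 0.012 without wild-type mouse 1 and to 0.026 without SIRT7-/- mouse 1. Over all alternatives that adjusted p ranged from 0.012 to 0.54.

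Fth1 (chromosome 19:9980598-9985098) moved with it in cluster 2, at 74.6, 55.7 and 68.5 CP10K in the wild-type against 98.2, 103 and 93.0 CP10K in the SIRT7-/- mice. The groups again did not overlap, and the log2 fold change was 0.57 (SE 0.17, 95% confidence interval 0.22 to 0.93; limma adjusted p = 0.16). In cluster 4, Fth1 averaged 29.5, 21.1 and 15.0 CP10K in the wild-type and 13.9, 21.0 and 6.62 CP10K in the SIRT7-/- mice. There SIRT7-/- mouse 3 was lowest and the groups overlapped (log2 fold change -0.75, SE 0.43, limma adjusted p = 0.59). Ftl1 in cluster 4 had 58.6, 39.3 and 28.2 against 26.0, 52.8 and 21.0 CP10K and a log2 fold change of -0.39 (SE 0.42, limma adjusted p = 0.80).

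The fold change itself was compared between the clusters on the log2 value in cluster 2 minus that in cluster 4 of the same mouse, a test added after the values had been seen. For Fth1 this difference was 1.34, 1.40 and 2.19 for wild-type mice against 2.82, 2.29 and 3.80 for SIRT7-/- mice, and for Ftl1 it was 1.14, 1.27 and 1.87 against 2.47, 1.94 and 3.27. Both were higher in every SIRT7-/- mouse, by 1.33 (SE 0.49, limma adjusted p = 0.41) for Fth1 and by 1.13 (SE 0.46, limma adjusted p = 0.42) for Ftl1, and 5.37% of all genes tested were higher in this way. Slc40a1 went the other way, with differences of -0.26, -0.14 and -0.40 against -1.02, -1.63 and -1.51 (limma adjusted p = 0.45), lower in every SIRT7-/- mouse as 15.2% of all genes were. None of these passed the adjusted threshold.

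The other iron genes were low in clusters 2 and 4. Slc40a1 averaged 0.921, 1.12 and 1.94 CP10K in cluster 2 of the wild-type and 1.09, 0.551 and 0.356 CP10K in that of the SIRT7-/- mice, where mouse 1 lay between the wild-type mice (log2 fold change -1.01, SE 0.41, limma adjusted p = 0.37). In cluster 4 its log2 fold change was 0.11 (SE 0.41, limma adjusted p = 0.95). Tfrc had log2 fold changes of -0.67 in cluster 2 and -0.42 in cluster 4, and Hmox1 had -0.28 and 0.48, with limma adjusted p values of 0.70, 0.82, 0.89 and 0.81. Slc11a1 was under the filter of 0.05 CP10K in cluster 2 and had 0.70 (SE 0.77) in cluster 4, and Bmp6 was under it in both.

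The change of hepcidin was also compared between clusters 2 and 4 together, whose mix differed between mice, and macrophage-like cells of the same mouse. The log2 differences for Hamp were 3.32, 2.94 and 3.71 (wild-type) against 3.58, 5.64 and 4.64 (SIRT7-/-), with SIRT7-/- mouse 1 among the wild-type mice (difference of the change 1.29, SE 0.71, limma adjusted p = 0.75). The limma adjusted p was also 0.75 for Hamp2 and at least 0.77 for the other iron genes tested.

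What else moved with cluster 2 bears on these values. Hemoglobin genes took 2.37% of the UMIs of cluster 2 in wild-type mouse 1 and at most 0.0791% in the other mice. The 8 hepatocyte markers summed to 635, 655 and 431 CP10K in the wild-type and 704, 561 and 685 CP10K in the SIRT7-/- mice, so that the summed level overlapped between the groups while Alb within it ran from 22.8 to 212 CP10K. The cells of cluster 2 had median depths of 1022 to 1960 UMIs, and wild-type mouse 3 and SIRT7-/- mouse 3 held 55 and 64 of them. Without the cells in which hemoglobin exceeded 1% of UMIs, the limma log2 fold changes in cluster 2 were 0.61 for Hamp, 0.57 for Fth1 and 0.73 for Ftl1. The part of the other mouse differences in the result was not tested.

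Macrophage-like cells carried the recycling genes, and 4 of the 9 iron genes above the filter were higher in each SIRT7-/- mouse, against 7.14% of all genes. Slc40a1 (chromosome 1:45908068-45926523) averaged 22.9, 22.0 and 23.9 CP10K in the wild-type and 30.7, 27.2 and 25.1 CP10K in the SIRT7-/- mice. The wild-type mice lay within 2 CP10K of each other and all below the SIRT7-/- mice (log2 fold change 0.27, SE 0.15, 95% confidence interval -0.05 to 0.59, limma adjusted p = 0.56). Slc11a1 (chromosome 1:74375195-74386062) averaged 1.35, 1.46 and 1.15 against 1.77, 1.83 and 1.87 CP10K (log2 fold change 0.46, SE 0.20, limma adjusted p = 0.45).

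Ftl1 in macrophage-like cells averaged 108, 87.6 and 96.0 CP10K in the wild-type and 133, 114 and 150 CP10K in the SIRT7-/- mice, and Fth1 averaged 48.1, 46.7 and 42.5 against 68.8, 50.5 and 64.3 CP10K. Neither gene's groups overlapped, although SIRT7-/- mouse 2 came close to the wild-type mice for both. The log2 fold changes were 0.44 (SE 0.15, limma adjusted p = 0.29) for Ftl1 and 0.41 (SE 0.15, limma adjusted p = 0.36) for Fth1. Hmox1 (chromosome 8:75093621-75100589), the enzyme that opens the heme ring, averaged 8.65, 9.72 and 10.5 against 13.4, 10.7 and 8.40 CP10K. SIRT7-/- mice were both the highest and the lowest for Hmox1 (log2 fold change 0.15, SE 0.19, limma adjusted p = 0.82).

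Tfrc (chromosome 16:32608920-32632794), the receptor for iron-loaded transferrin, had a lower mean in SIRT7-/- macrophage-like cells with an unadjusted p under 0.05. It averaged 0.240, 1.87 and 0.632 CP10K in the wild-type and 0.197, 0.335 and 0.115 CP10K in the SIRT7-/- mice. Wild-type mouse 2, with 45 macrophage-like cells, was far above the rest, and wild-type mouse 1 lay among the SIRT7-/- mice (log2 fold change -1.53, SE 0.59, limma adjusted p = 0.38). Without wild-type mouse 2 the change was -0.83, and without wild-type mouse 1 it was -2.19. The Hamp, Hamp2 and Trf levels in macrophage-like cells had negative log2 fold changes of -0.97, -1.92 and -0.52 with limma adjusted p values of 0.57, 0.56 and 0.73, and groups overlapped for all 3. Hamp there had a limma adjusted p of 0.016 without SIRT7-/- mouse 1, where 99 genes passed instead of 20. Leaving out 1 mouse at a time gave log2 fold changes of -1.57 to -0.46 for it. Bmp6 had no UMI in the macrophage-like cells of the wild-type mice and at most 0.0145 CP10K in those of the SIRT7-/- mice, under the filter.

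Numbers of macrophage-like cells differed strongly between mice, with 55, 45 and 243 from wild-type mice against 2651, 636 and 84 from SIRT7-/- mice, and so did their median depth, from 2097 to 6494 UMIs. The summed level of the 8 hepatocyte markers in them was 123, 103 and 42.4 CP10K in the wild-type and 58.6, 12.1 and 53.0 CP10K in the SIRT7-/- mice, with Alb at 2.60 to 26.4 CP10K. Hepatocyte RNA was thus lower on average in the SIRT7-/- macrophage-like cells with overlapping groups. Its part in the ferritin, Slc40a1 and Slc11a1 differences was not tested. Clustering at a resolution of 0.7 split macrophage-like cells into clusters of 2571, 642 and 430 cells, led by Vsig4, Retnla and Ccl24. Hmox1 was among the 10 leading genes of the smallest. The part of their mix in the differences between mice was not tested either.

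**Figure D4:**
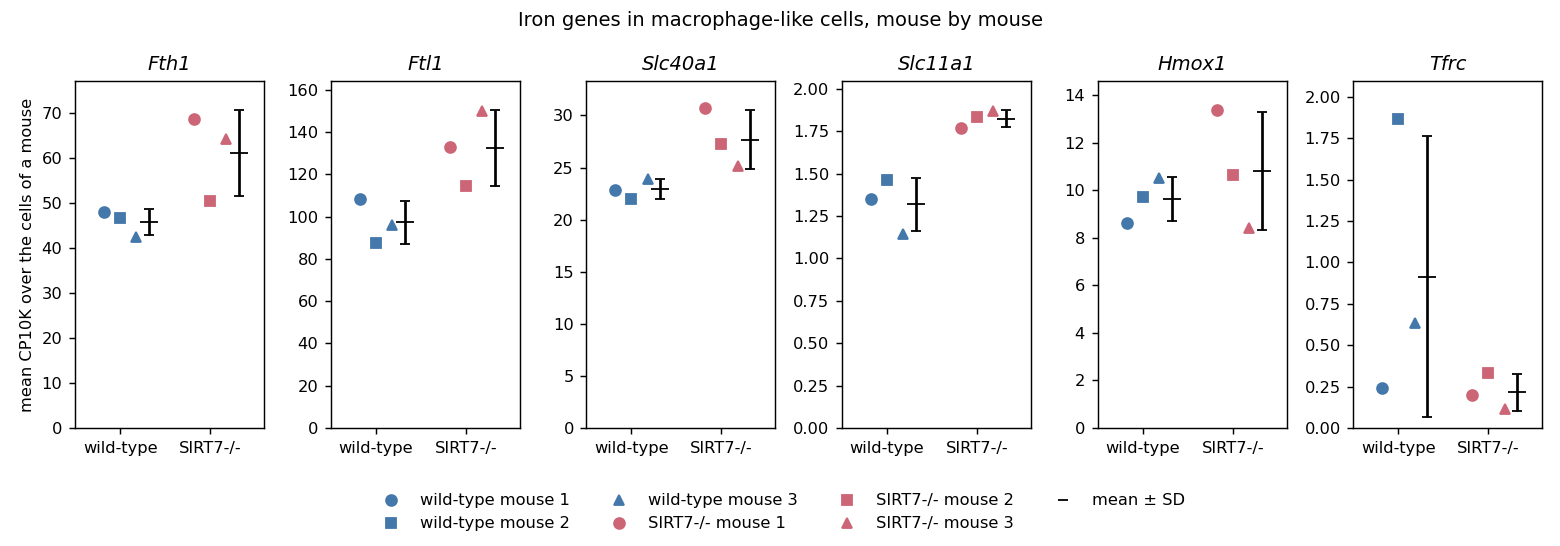
Mean CP10K of 6 iron genes over the macrophage-like cells of each mouse, with points for mice and bars for the mean ± SD of 3 mice. Fth1, Ftl1, Slc40a1 and Slc11a1 separate the genotypes, Hmox1 does not, and for Tfrc the wild-type mice spread from 0.240 to 1.87 CP10K.

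In endothelial-like cells the gene of interest was Bmp6 (chromosome 13:38345107-38500302). It averaged 1.44, 0.932 and 1.51 CP10K in the wild-type livers, against 1.53 and 1.93 CP10K in SIRT7-/- mice 1 and 2. The SIRT7-/- values were the higher ones, though SIRT7-/- mouse 1 exceeded wild-type mouse 3 only narrowly, and the log2 fold change was 0.42 (SE 0.37, 95% confidence interval -0.32 to 1.17, limma adjusted p = 0.82). Hmox1 averaged 0.355, 0.641 and 0.940 CP10K in the wild-type and 1.23 and 1.36 CP10K in the SIRT7-/- mice (log2 fold change 1.04, SE 0.44, limma adjusted p = 0.60). Slc40a1, with 2.50, 3.19 and 3.17 against 3.78 and 3.31 CP10K, also did not overlap (log2 fold change 0.26, SE 0.33, limma adjusted p = 0.89), and 9.55% of all genes were higher in both SIRT7-/- mice.

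The mean ferritin levels overlapped between the genotypes in endothelial-like cells. Ftl1 averaged 50.2, 48.7 and 41.2 CP10K in the wild-type and 50.1 and 44.4 CP10K in the SIRT7-/- mice, a log2 fold change of 0.02 with an interval from -0.56 to 0.60, and Fth1 had -0.18 with an interval from -0.82 to 0.45 (limma adjusted p = 0.99 and 0.92). The hepatocyte transcripts Hamp, Hamp2 and Trf varied there with the mouse, from 2.94 to 17.0, 0.145 to 11.2 and 1.88 to 13.3 CP10K, and SIRT7-/- mouse 2 was lowest for each. That mouse also had the lowest Alb level in endothelial-like cells, 4.42 CP10K against 21.2 to 40.6 CP10K in the other mice. Trf had a limma adjusted p of 0.73 with all 5 mice and of 0.034 without wild-type mouse 3. The Hamp log2 fold change with all 5 mice was -0.17 (limma adjusted p = 0.98). Its sign depended on which SIRT7-/- mouse was kept, at -1.43 with mouse 2 alone and 1.08 with mouse 1 alone. Each of these values rests on a single SIRT7-/- mouse.

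In cluster 2, 0 of the 8 iron genes above the filter on low values passed the adjusted limma threshold, where 40 of 8544 genes did (0.468%). Of the 8, 4 had an unadjusted p under 0.05 (10.7% of all genes did), and 3 were higher in every SIRT7-/- mouse (7.84% of all genes), with 0 lower in every one (9.01%). When the summed UMIs were weighted by voom in limma, 456 of the 8544 genes passed the adjusted threshold in cluster 2. Among them were 3 of the 8 iron genes, Hamp, Fth1 and Ftl1. Their adjusted p values were 0.016, 0.014 and 0.012.

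In macrophage-like cells, 0 of 9 iron genes passed the adjusted limma threshold, against 20 of 9954 genes (0.201%), and 0 passed with voom. There 4 of the 9 had an unadjusted p under 0.05 (10.6% of all genes), and 4 were higher (7.14% of all genes) and 0 lower (9.92%) in every SIRT7-/- mouse. In cluster 4, 0 of 9 passed with limma and 0 with voom, against 24 of 10309 genes with limma (0.233%). None of the 9 reached an unadjusted p under 0.05 in cluster 4 (9.87% of all genes did), and in none did the groups separate, which 12.6% of all genes did upward and 3.82% downward.

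Endothelial-like cells had 0 of 8 iron genes past the adjusted limma threshold and 0 with voom, against 34 of 10681 genes (0.318%) with limma, and 1 of the 8 had an unadjusted p under 0.05 (7.28% of all genes). There 3 of the 8 were higher (9.55% of all genes) and 0 lower (12.8%) in both SIRT7-/- mice. For clusters 2 and 4 together, 0 of 8 passed with limma and 0 with voom, against 11 of 9871 genes (0.111%), and 0 of 8 had an unadjusted p under 0.05 (7.47% of all genes). For the difference of the change between cluster 2 and cluster 4, 2 of 8 iron genes had an unadjusted limma p under 0.05 (11.2% of all genes) and 0 passed after adjustment, as for all genes (0%). For the difference between clusters 2 and 4 together and macrophage-like cells, 0 of 8 had an unadjusted p under 0.05 (7.16% of all genes) and 0 passed, again as for all genes (0%).

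Over the iron genes above the filter the median was -0.43 in cluster 2, -0.42 in cluster 4, 0.15 in macrophage-like and -0.08 in endothelial-like cells, beside -0.10, 0.19, -0.03 and -0.05 over all genes tested there, so that the signs differed in cluster 4 and in macrophage-like cells. With 3 mice against 3, or 3 against 2, an exact two-sided permutation test of a single value cannot go below p = 0.1, which is what each gene without overlap in 3 against 3 mice reached.

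**Figure D5:**
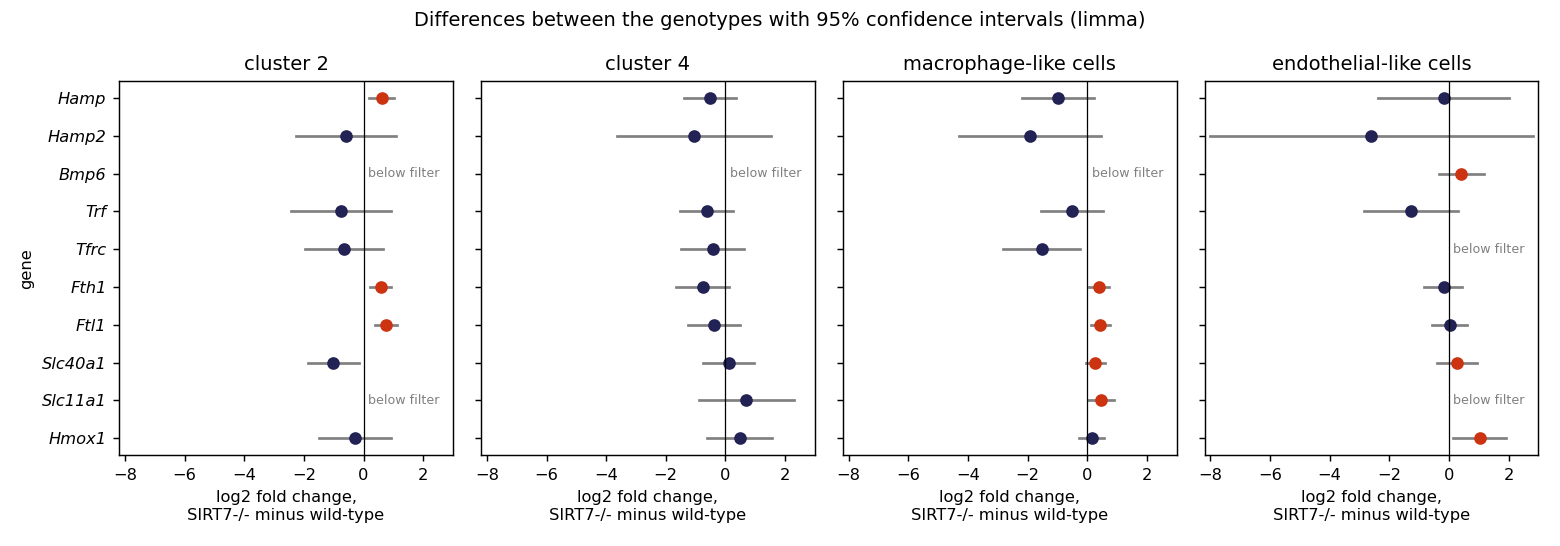
Log2 fold change (SIRT7-/- minus wild-type) of the 10 iron genes in 4 cell classes, with the 95% confidence interval from limma as a line. Red points mark genes whose mice do not overlap with SIRT7-/- higher, and "below filter" marks genes under a mean of 0.05 CP10K. The red points are Hamp, Fth1 and Ftl1 in cluster 2, Fth1, Ftl1, Slc40a1 and Slc11a1 in macrophage-like cells, and Bmp6, Slc40a1 and Hmox1 in endothelial-like cells.

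The share of cells with at least 1 UMI of a gene was compared after thinning each cell to 500 UMIs, which no cell fell short of. Slc40a1 was seen in 61.8%, 68.9% and 62.1% of the macrophage-like cells of the wild-type mice and in 74.2%, 63.5% and 63.1% of those of the SIRT7-/- mice, against 0% to 3.92% of T or NK-like cells. The groups overlapped (exact permutation test, two-sided, p = 0.5). Without thinning the shares were 84.4% to 95.3% in macrophage-like and 2.96% to 9.68% in T or NK-like cells, whose median depths over all mice were 2268.5 and 1565.5 UMIs.

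Hamp was seen in 78.1% to 93.0% of thinned cells of cluster 2 and in 11.3% to 48.5% of T or NK-like cells, so a single Hamp UMI does not mark a hepatocyte here. Without thinning those shares were 96.4% to 99.6% and 23.8% to 94.1%. Bmp6 was seen in 7.35%, 3.64% and 4.49% of thinned endothelial-like cells of the wild-type and 7.43% and 5.17% of those of SIRT7-/- mice 1 and 2 (exact permutation test, two-sided, p = 0.5), and in at most 0.145% of T or NK-like cells. Without thinning it was seen in 14.4% to 29.4% of endothelial-like cells.

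Ferritin shares in cluster 4 separated the genotypes after thinning. Fth1 was seen in 75.7%, 55.5% and 54.4% of its thinned cells in the wild-type mice and 47.8%, 45.6% and 26.9% in the SIRT7-/- mice, and Ftl1 in 94.7%, 90.1% and 76.1% against 68.9%, 64.9% and 63.8%. For both genes the SIRT7-/- shares were all lower than the wild-type shares, with a two-sided p = 0.1 by exact permutation, below which this design cannot go. Without thinning the groups overlapped for both (exact permutation test, p = 0.2), and the mean CP10K of both genes overlapped as well. The 8 hepatocyte markers summed in cluster 4 to 443, 313 and 199 CP10K in the wild-type and 209, 164 and 258 CP10K in the SIRT7-/- mice, with median depths of 1002 to 3823 UMIs, and their part in the ferritin shares was not tested. In endothelial-like cells, Ftl1 was seen in 88.2%, 91.8% and 84.3% of thinned wild-type cells against 82.7% and 81.0% of those of SIRT7-/- mice 1 and 2, lower in both (exact permutation test, two-sided, p = 0.2), while the Fth1 shares overlapped. Without thinning both ferritin genes were seen in fewer cells of both SIRT7-/- mice there (exact permutation test, p = 0.1). In cluster 2, Fth1 was seen in 94.6% to 96.7% of thinned wild-type and 98.1% to 99.1% of thinned SIRT7-/- cells. Tfrc in macrophage-like cells had lower thinned shares in every SIRT7-/- mouse (mean 4.67% against 0.916%, exact permutation test, p = 0.1). The gap was narrow, with 1.82% in wild-type mouse 1 and 1.73% in SIRT7-/- mouse 2. Trf in endothelial-like cells was lower in both SIRT7-/- mice (mean 33.7% against 13.8%, exact permutation test, p = 0.2). There wild-type mouse 3 had 18.0% and SIRT7-/- mouse 1 had 17.3%. For both Tfrc and Trf the groups overlapped without thinning (exact permutation test, p = 0.3). Shares were computed for the 10 iron genes only, so how often groups separate in this way over all genes is not known. No cell type here lacks ferritin, so no background share can be given for it.

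A wider list of 62 genes of iron sensing, transport, heme synthesis and heme breakdown had 61 in the table, and limma called 0 of them after adjustment in each class. In cluster 2, 11 of the 51 above the filter had an unadjusted p under 0.05, 5 higher and 6 lower (10.7% of all genes did). The smallest p belonged to Id1, a direct target of BMP signalling, at 0.170, 0.0367 and 0 CP10K in the wild-type and 0.406, 0.645 and 0.514 CP10K in the SIRT7-/- mice (limma adjusted p = 0.061). Blvrb, a biliverdin reductase, averaged 4.43, 5.49 and 6.13 against 10.8, 10.8 and 7.25 CP10K (log2 fold change 0.83, SE 0.24, limma adjusted p = 0.16). It was higher in every SIRT7-/- mouse, as were 7.84% of all genes. Hp, which encodes the hemoglobin scavenger haptoglobin, averaged 12.2, 16.8 and 5.78 against 4.94, 2.78 and 5.22 CP10K (log2 fold change -1.34, SE 0.38, limma adjusted p = 0.19). It was lower in every SIRT7-/- mouse, as were 9.01% of all genes.

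In cluster 4, 5 of 55 had an unadjusted p under 0.05, 4 higher and 1 lower, at about the rate of all genes (9.87%). Gdf15, a hormone induced by cell stress, averaged 15.6, 5.71 and 3.90 CP10K in the wild-type and 2.37, 1.05 and 1.64 CP10K in the SIRT7-/- mice (log2 fold change -2.10, SE 0.46, limma adjusted p = 0.07). Hfe2, hemojuvelin, the BMP co-receptor of hepatocytes, averaged 0.361, 0.920 and 0.291 against 1.36, 2.14 and 1.68 CP10K (log2 fold change 1.77, SE 0.44, limma adjusted p = 0.13). Nfe2l2, which encodes the antioxidant factor NRF2, averaged 1.51, 1.38 and 1.69 against 2.46, 3.36 and 4.06 CP10K (limma adjusted p = 0.34). The mice of the genotypes did not overlap for any of these 3, nor for 12.6% of all genes upward and 3.82% downward.

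Of 53 genes of the wider list in macrophage-like cells, 7 had an unadjusted p under 0.05, 3 higher and 4 lower, near the rate of all genes (10.6%). Cpox, an enzyme of heme synthesis, averaged 0.900, 0.585 and 0.843 against 0.429, 0.293 and 0.408 CP10K (log2 fold change -0.95, SE 0.29, limma adjusted p = 0.25). Ncoa4, the receptor that takes ferritin to the lysosome, averaged 1.69, 1.49 and 2.38 against 2.94, 2.77 and 3.10 CP10K (log2 fold change 0.68, SE 0.21, limma adjusted p = 0.26). Spic, a transcription factor of iron-recycling macrophages, averaged 0.558, 0.591 and 0.558 against 0.979, 0.857 and 1.10 CP10K (log2 fold change 0.73, SE 0.24, limma adjusted p = 0.29).

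In endothelial-like cells, 3 of 53 had an unadjusted p under 0.05, 0 higher and 3 lower, a lower rate than that of all genes (7.28%), led by Aco1, which encodes iron regulatory protein 1 (0.966, 0.705 and 0.826 against 0.382 and 0.0985 CP10K, limma adjusted p = 0.21). Slc25a37, the mitochondrial iron importer, was also among the 3 (log2 fold change -0.75, limma adjusted p = 0.68). For clusters 2 and 4 together, 7 of 55 had an unadjusted p under 0.05 (7.47% of all genes did), and the smallest were those of Id1, Nfe2l2 and Hfe2, with log2 fold changes of 1.72, 1.22 and 1.18 and limma adjusted p values of 0.35, 0.56 and 0.57.

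Over 46 means of mice and clusters and among 6885 genes, those whose log2 levels were most like Hamp included Acaa1b and Mat1a (Pearson r 0.945 and 0.930). Il18bp, Itsn1 and Mertk (0.830, 0.822 and 0.813) were most like Slc40a1, and Lhfpl2, Tmem204 and Hecw2 (0.971, 0.970 and 0.969) were most like Bmp6. Means of 1 mouse share a library and its depth, and hepatocyte transcripts were counted in every cluster. These correlations therefore only describe which genes peak in the same clusters.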

How the data were processed

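Liver cells from 3 wild-type and 3 SIRT7-/- animals were profiled by droplet-based single-cell RNA sequencing, 1 library per mouse. According to the submitters' processing notes and the methods, the authors aligned reads with Cell Ranger 6.0.0 to the mouse transcriptome (mm10), dropped cells under 500 genes or over 5% mitochondrial UMIs, brought every cell to a total of 10000 and log-transformed the result. The values deposited by the authors are the natural log of counts per 10000 (CP10K) plus 1. When the log was undone, the values summed to 10000 in every cell and all 12961041 values above 0 gave whole UMIs within 0.02. Of the 16623 genes, 44 were seen in under 3 cells. The suffix of each barcode gave the mouse, with 0 cells left over.

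Cell types are not named in the table. The 1000 most variable genes without 12 iron genes (988), 50 principal components, a graph with 3 neighbors from each mouse and leidenalg 0.10.2 at a resolution of 0.35 gave 10 clusters (scanpy 1.11.5, Python 3.11.15), named from marker lists where their leading genes allowed it. Scrublet called 46 doublets (0.396%), too few for the caller to have worked, so all deposited cells were kept. An alternative left out the 675 cells with the highest 5% of doublet scores per mouse.

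CP10K was averaged over the cells of each mouse and class with at least 20 cells. Log2 of the mean plus 0.05 CP10K was tested for genes averaging 0.05 CP10K or more, with limma 3.58.1 (R 4.3.3, statmod 1.5.0; eBayes, trend and robust options). P values were two-sided and Benjamini-Hochberg adjusted within a class, with a threshold of 0.05. The script was tested on simulated data first. The mouse was the replicate, and the cell-level test of the study (MAST) was not used. Precision is limited by 2 or 3 mice per genotype and by 45 to 2651 cells per mouse and class compared, and intervals of shares were not computed. Promoter windows came from RefSeq (GRCm38.p6) and gene positions from GENCODE on GRCm38. The 10 genes, the wider list and the tests were chosen with earlier results of these data known. The genes named are those 10 in every class, the 3 genes of the wider list with the smallest p per class, and the 3 genes most correlated with Hamp, Slc40a1 and Bmp6. Of the genes this rule names, 2 are not reported here. Alternatives were another offset, no filter, summed UMIs, voom weights, quantile normalization, a replicate block, fewer cells per mouse, fewer doublets, no hemoglobin-rich cells, clustering with the iron genes or at a resolution of 0.7, an Xist covariate, and leaving out each mouse. Equal weights for clusters 2 and 4 and the test of cluster 2 against cluster 4 were added after seeing the data.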

Additional observations from a re-analysis of the deposited data

Results flagged for a closer look

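Cluster 3, the unnamed cluster with basophil and dendritic genes, enters no comparison above, and in SIRT7-/- mouse 3 it held more Fth1 and Hmox1 than in any wild-type mouse by over 2-fold. Fth1 averaged 95.73 CP10K there, against 30.2 to 44.9 CP10K in the wild-type mice. Hmox1 averaged 9.493 CP10K, against 0.415 to 0.589 CP10K in the wild-type mice. These values rest on 50 cells, and a single cell with 151 Hmox1 UMIs among 4539 UMIs held 70.1% of the summed Hmox1 level. Without that cell, Hmox1 averaged 2.90 CP10K and Fth1 85.0 CP10K, and 12 of the 50 cells had an Hmox1 UMI. Hamp averaged 30.49 CP10K in the B-like cluster of SIRT7-/- mouse 1 (73 cells), against 13.1 and 8.19 CP10K in the wild-type mice with at least 20 such cells. The hepatocyte markers summed to 281 CP10K in the same cells and to 261 and 114 CP10K in those wild-type mice. Their part in the Hamp value was not tested.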

How the results depend on the processing

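Over the alternatives, changes of Hamp, Fth1 and Ftl1 in cluster 2 and of Fth1, Ftl1, Slc40a1 and Slc11a1 in macrophage-like cells kept their direction throughout, at 0.41 to 0.80, 0.45 to 0.73, 0.63 to 0.90, 0.14 to 0.56, 0.35 to 0.54, 0.06 to 0.34 and 0.28 to 0.60 on the log2 scale. Of all values recomputed, 1183 were taken as the same, 65 counts moved, 59 turned sign and 15 newly passed the threshold. A fold change was the same if it kept direction and side of the threshold. Counts were the same if they changed little or not at all, and share differences if they kept their sign. For every change below, the cause was not tested.

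Counts of genes past the adjusted limma threshold moved widely. They are given for clusters 2 and 4 together, macrophage-like cells, endothelial-like cells, cluster 2 and cluster 4, where the main counts were 11, 20, 34, 40 and 24. With no filter they were 3, 1, 83, 75 and 10. With voom they were 3 in the combined clusters, 3 in endothelial-like cells, 456 in cluster 2 and 88 in cluster 4, and with summed UMIs 3, 8, 122 and 12. With the Xist covariate they were 1 in macrophage-like cells, 10 in endothelial-like cells, 184 in cluster 2 and 143 in cluster 4. An offset of 0.5 CP10K gave 3 in the combined clusters and 14 for cluster 2 minus cluster 4, equal weights gave 48 in the combined clusters, and leaving out high doublet scores gave 11 in macrophage-like and 53 in endothelial-like cells. Quantile normalization gave 20 in endothelial-like cells and 3 for the combined clusters minus macrophage-like cells. Leaving out 1 mouse gave 3 to 25, 1 to 99, 8 to 259, 19 to 159 and 10 to 101, and 0 to 1 for the combined clusters minus macrophage-like cells. The highest of these came without SIRT7-/- mouse 2 in the combined clusters, without SIRT7-/- mouse 1 in macrophage-like and endothelial-like cells, and without SIRT7-/- mouse 3 in clusters 2 and 4. Without SIRT7-/- mouse 1 a single SIRT7-/- mouse remained in endothelial-like cells, assumed to vary like the others.

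Of the 10 iron genes, the number past the threshold rose from 0 to 3 with voom in cluster 2 (Hamp, Fth1, Ftl1), to 1 with no filter (Ftl1) or the Xist covariate (Ftl1) in cluster 2, and to 1 with no filter in endothelial-like cells (Trf). Leaving out 1 mouse gave 0 to 1 in cluster 2, in macrophage-like and in endothelial-like cells.

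Mouse numbers are shared by the genotypes, and the labels do not say whether same-numbered mice were paired. Deviations of same-numbered mice from their group means correlated between -0.16 and 0.13 over the genes tested. With so few mice these values cannot decide whether the numbers pair the mice, and the main comparison used no pairing. With the replicate block, 161 genes passed in macrophage-like, 220 in endothelial-like cells, 2 in cluster 2, 57 in cluster 4 and 1 for the combined clusters minus macrophage-like cells. It put 1 iron gene past the threshold in macrophage-like cells (Tfrc, -1.53, limma adjusted p = 0.044) and 2 in endothelial-like cells (Hamp2 and Trf), turned Ftl1 in endothelial-like cells to -0.07, and changed no other call among the 10.

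Small changes also turned sign, given as log2 fold changes. Fth1 in the combined clusters was -0.00 and became 0.17 (Xist covariate), 0.35 (equal weights), 0.01 (iron genes kept in clustering), 0.00 (offset of 0.5 CP10K, and resolution of 0.7), 0.06 (quantile), 0.10 (summed UMIs), 0.15 (voom) and 0.01 (without high doublet scores). Hamp in endothelial-like cells became 0.06 (Xist), 0.10 (summed UMIs) and 0.11 (voom), and Fth1 there 0.09 (summed UMIs) and 0.10 (voom). Hmox1 in cluster 2 became 0.08 (summed UMIs), 0.80 (voom) and 0.15 (without high doublet scores). Quantile normalization turned Ftl1 in cluster 4 to 0.02, Ftl1 in endothelial-like cells to -0.07, Hmox1 in the combined clusters to -0.03 and Slc40a1 in cluster 4 to -0.03. Hmox1 in the combined clusters minus macrophage-like cells became -0.08 (quantile), -0.13 (offset) and -0.02 (resolution of 0.7).

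Leaving out 1 mouse gave, for the combined clusters, -0.40 to 0.55 for Fth1, -0.23 to 0.59 for Ftl1, -0.19 to 0.72 for Hmox1, -0.61 to 0.01 for Slc40a1 and -0.70 to 0.36 for Tfrc. Minus macrophage-like cells it gave -0.94 to 0.18 for Fth1, -0.77 to 0.24 for Ftl1 and -0.27 to 0.51 for Hmox1. In endothelial-like cells it gave -0.71 to 0.34 for Fth1, -0.07 to 0.11 for Ftl1 and -1.43 to 1.08 for Hamp. Hmox1 ranged from -0.68 to 0.47 in cluster 2 and from -0.02 to 0.31 in macrophage-like cells, Slc40a1 from -0.11 to 0.48 and Tfrc from -0.73 to 0.18 in cluster 4. Without turning sign, Tfrc in macrophage-like cells ranged from -2.19 to -0.83, Trf from -1.35 to -0.46 and Hamp2 from -1.25 to -0.03 in cluster 2, and Trf from -1.09 to -0.28, Hamp2 from -2.11 to -0.19, Hamp from -0.82 to -0.17 and Fth1 from -1.13 to -0.30 in cluster 4. For cluster 2 minus cluster 4, Tfrc ranged from -0.74 to 0.39 and Trf from -0.47 to 0.17.

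Without thinning, the difference in the share of cells with a UMI, in percentage points, turned sign for Bmp6 (-4.28) and Slc40a1 (-10.4) in endothelial-like cells, for Fth1 (-0.57), Ftl1 (-0.0633), Hmox1 (1.18) and Tfrc (-0.994) in cluster 2, for Fth1 in macrophage-like cells (-0.01) and for Slc40a1 in cluster 4 (-1.06). A minimum of 10 cells per mouse admitted no further mouse. Tfrc, Slc11a1 and Bmp6 averaged under 2 CP10K in every mouse and class compared, so that their values rest on few UMIs.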
